A study of Drosophila melanogaster with 16 samples.

Results

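The comparison set RNA of Drosophila melanogaster embryos homozygous for the Jasper allele Su113 against embryos homozygous for the allele Su140 of the same gene, both at stages 7 to 8 (St7-8). Its members were 4 libraries of the 16 in the series, Su113 replicates 1 and 2 and Su140 replicates 1 and 2, taken by their names in the count table. All 17753 genes of the table were considered, 12289 had enough counts to be tested, and no library of the wm4h stock entered the comparison. The genotypes were wm4h;JasperSu113/JasperSu113 and wm4h;JasperSu140/JasperSu140, so both alleles were carried on the wm4h background. Each sample was a frozen pool of 50 embryos sorted by hand, and its total RNA was made into a stranded library. The eggs were laid within 1 h and kept 2 h longer at 25 °C. For every sample the labels also give a growth temperature of 20 °C. A further 4 libraries held the same alleles at nuclear cycle 14 (NC14, stage 5), and 4 held embryos at both stages that were homozygous for Su(var)3-906, also with wm4h. These 8 libraries shared the model and gave the other values set beside the comparison. No label says that the pools came from separate cages, so each p-value reflects the scatter of the pools in the model, which may be technical. The labels give neither the lesion of an allele nor the number of lines behind it.

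JASPer is a chromatin protein whose PWWP domain binds methylated histone H3 over active genes and that works with the kinase JIL-1. The wm4h chromosome is an X inversion that sets the eye pigment gene w beside heterochromatin, so that w is silenced in a varying share of cells, and it is used to find genes that modify this silencing. At these ages the embryo passes from RNA laid down by the mother to its own transcription. At NC14 the nuclei become cells, and by St7-8 the germ layers have formed and the segments are being named. Homozygous stocks can also differ elsewhere in their genomes, and such differences and those of the alleles cannot be told apart here.

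Total counts of the 4 libraries were 88185406 and 43466130 in Su113, against 73392895 and 65918287 in Su140. Levels are given in CPM, counts scaled to a common TMM-adjusted library total, in the order replicate 1, replicate 2. A level set by 3 counts stood at 0.0315 and 0.0629 CPM in Su113 and at 0.0410 and 0.0434 CPM in Su140, and covers counting error alone. Replicates lay far apart. The SD of the log2 CPM difference between the replicates was 1.35 in Su113 and 1.56 in Su140 at St7-8, against 0.559 and 0.734 in the same alleles at NC14.

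The stage labels were checked with marker lists. The summed level of 8 cellularization genes, which are switched off after NC14 and of which 1 was at 0 in every library, was 2877 and 1696 CPM in Su113 and 3901 and 3252 CPM in Su140. That was below the 7956 and 6459 CPM of Su113 and the 7464 and 6872 CPM of Su140 at NC14, but far above the 165 and 187 CPM of Su(var)3-9 at St7-8. Both Jasper alleles at the label St7-8 therefore lay between NC14 and the Su(var)3-9 St7-8 libraries on these genes, with Su113 below Su140. Muscle genes, which belong to much older embryos, stood apart by library. Their 12 members summed to 1169 and 2895 CPM in Su113 and 868 and 2827 CPM in Su140, against 614 and 674 CPM in Su(var)3-9 at the same stage. Mhc, the muscle myosin heavy chain, stood at 91.3 and 495 CPM in Su113 and at 0.356 and 462 CPM in Su140. Replicate 2 of both alleles and replicate 1 of Su113 were thus high, and Su140 replicate 1 was not: the troponin genes wupA and TpnC73F had 0 counts there. Of the 12, 0 passed edgeR's test between the alleles or that of DESeq2, and 0 had an unadjusted p under 0.05. Over all genes tested, 2.21% passed edgeR's test and 21.5% had such an unadjusted p. The alleles overlapped in 11 of the 12, and in 1 both Su113 libraries lay below both Su140 libraries. Over all genes, both Su113 libraries lay above in 18.5% and below in 27.6%. Without Su140 replicate 2, 2 passed, higher in Su113, and the median log2 fold change was 5.98, against 0.24 with it. Without replicate 2 of both alleles 4 passed, with a median of 4.97. The summed level of 13 late-embryo genes was 92.8 and 268 CPM in Su113 and 82.1 and 404 CPM in Su140.

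Of the 12289 genes tested, 272 passed edgeR's quasi-likelihood test between the alleles at St7-8, which was 2.21% of those tested (adjusted p under 0.05, Benjamini-Hochberg). An unadjusted p under 0.05 was reached by 2638. In Su113 175 genes were higher (1.42%) and 97 were lower (0.789%), and 208 of them differed at least 2-fold. In all 272 genes both Su113 libraries lay on the same side of both Su140 libraries, the same libraries that chose the genes. Such a gap between the alleles was common: 2277 of all genes tested (18.5%) had both Su113 libraries above both Su140 libraries, and 3393 (27.6%) had them below. The median log2 fold change over all genes tested was -0.05. Of the genes that passed, 260 were protein-coding.

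The model took its spread from 12 libraries, and the counts rested on that choice. Fits to the 4 libraries compared and to the 6 St7-8 libraries outside wm4h called 0 genes with edgeR, although 1095 and 1650 genes fell under 0.05 before adjustment, and DESeq2 on the 12 libraries called 1675. The common coefficient of variation was 0.414 over 12 libraries and 0.596 over the 4. The spread used by the model was thus below that of the libraries compared. Without Su113 replicate 1 the count was 1758, without Su113 replicate 2 it was 33, without Su140 replicate 1 it was 60 and without Su140 replicate 2 it was 76. A fit with a muscle marker score as a covariate called 65. With a score of developmental stage as a covariate, the mean log2 CPM of segment polarity and mesoderm genes less that of cellularization genes, it called 0, with 1052 genes at an unadjusted p under 0.05. In 20 of the 272 genes the call held with each of the 4 libraries left out in turn.

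The same alleles were compared at NC14, in libraries not shared with St7-8. At NC14 571 genes passed (4.65%), 429 higher in Su113 (3.49%) and 142 lower (1.16%). Of the 272 genes, 62 passed at both stages in the same direction, 22.8% of the St7-8 genes and 10.9% of the NC14 genes. They were higher in Su113 in 32 cases and lower in 30. In 123 other genes the allele difference passed at St7-8 alone and also differed from that at NC14 by the test of the change between stages. That test passed in 752 of all genes (6.12%), upward in 271 (2.21%) and downward in 481 (3.91%). A further 8 genes passed at both stages in opposite directions, and 79 passed at St7-8 alone with no call on the change.

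**Figure D1:**
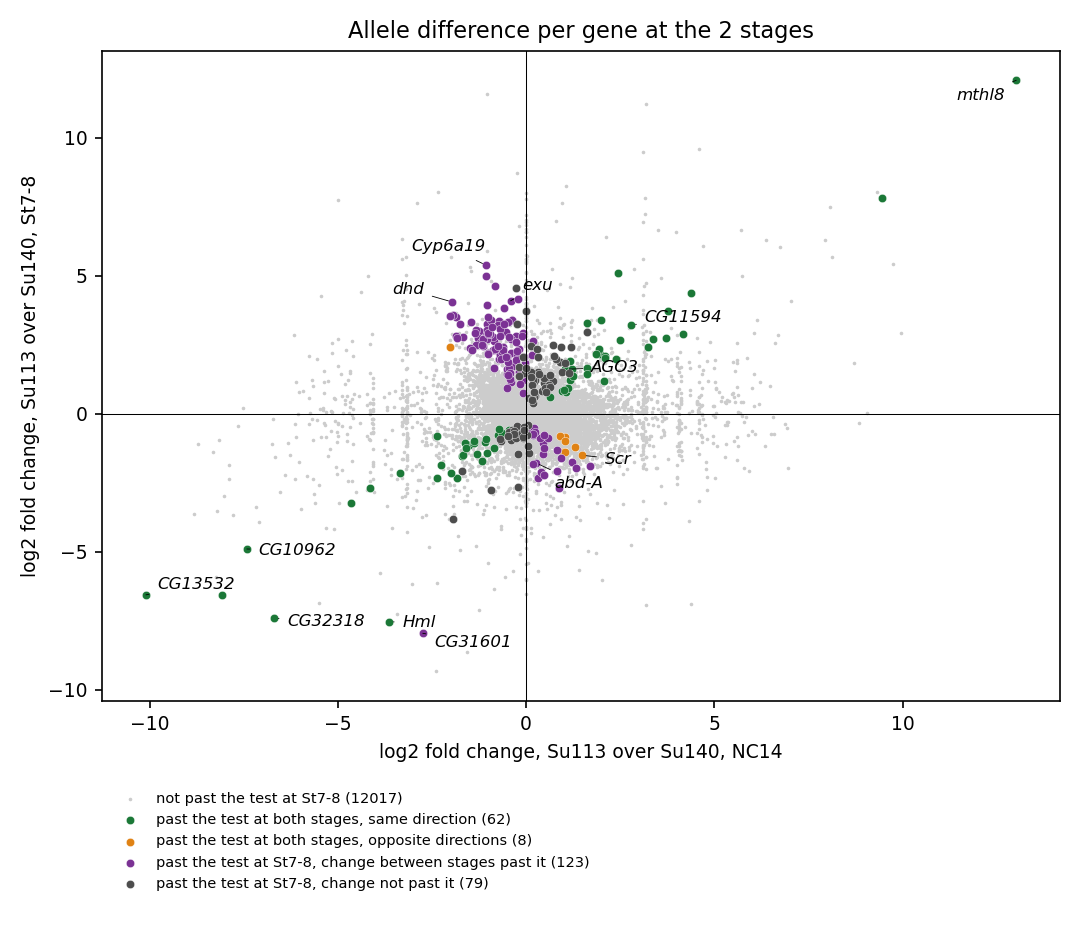
Each point is a gene, with the log2 fold change of Su113 over Su140 at NC14 on the x axis and at St7-8 on the y axis. The 62 green genes passed the test at both stages in the same direction and lie in the lower left and upper right, the 123 purple genes passed at St7-8 with a change between stages, and the fitted value of mthl8, with no counts in Su140, depends on the prior count and is no bound.

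Among the 62 genes with the same direction at both stages were the smallest p-values of the comparison. Counts of this kind also rested on single libraries: without an NC14 library in turn, 0 to 6 of the 62 still passed at NC14, and without a St7-8 library in turn, 16 to 59 still passed at St7-8. In all 62 genes the alleles did not overlap at NC14 either, in the NC14 libraries that helped to choose the genes. Over all genes tested, both Su113 NC14 libraries lay above both Su140 NC14 libraries in 34% and below them in 31.8%. In 49 of the 62 the difference was at least 2-fold at both stages, in 22 at least 4-fold, and in 10 at least 8-fold.

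AGO3 (FBgn0250816, 3L, 23554593 to 23689640), an Argonaute of the germline that cuts transposon RNA together with Aubergine in the piRNA amplification cycle, stood at 344 and 354 CPM in Su113, against 101 and 128 CPM in Su140. Both Su113 libraries were high and close to each other, with no overlap. Its log2 fold change was 1.61 ± 0.13 (SE; adjusted p = 0.00348), and 1.03 ± 0.12 at NC14 (adjusted p = 0.00781). CG11594 (FBgn0035484, 3L, 4022700 to 4026011) stood at 12.5 and 9.93 CPM in Su113, against 1.29 and 1.13 CPM in Su140. The alleles were again apart, with a log2 fold change of 3.21 ± 0.26 (adjusted p = 0.00348) and of 2.80 ± 0.25 at NC14 (adjusted p = 0.00367). In Su(var)3-9 at St7-8 CG11594 stood at 13.5 and 16.2 CPM, near Su113, whereas AGO3 stood at 144 and 139 CPM, near Su140. At NC14 AGO3 in Su(var)3-9 stood at 441 and 422 CPM, nearer to Su113, which had 490 and 491 CPM, than to Su140, which had 260 and 221 CPM. The St7-8 calls of AGO3 and CG11594 held with each of the 4 libraries left out. Mul1 overlaps CG11594 on the opposite strand, and the strand setting of the counting is not given in the sources used here.

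Several genes were very low in one allele. mthl8, a receptor of the Methuselah family, stood at 9.02 and 5.41 CPM in Su113 and had 0 counts in both Su140 libraries, at least 166.1-fold higher in Su113 when 3 counts are set for each Su140 library. At NC14 it stood at 15.4 and 12.4 CPM in Su113 and again had 0 counts in both Su140 libraries. Its relative mth, the receptor that gave the family its name, lay the other way, at 5.52 and 5.01 CPM in Su113 and 22.6 and 30.3 CPM in Su140 (log2 fold change -2.33 ± 0.41, adjusted p = 0.0331). CG32318 stood at 0.0839 and 0.0419 CPM in Su113, against 13.6 and 9.39 CPM in Su140. CG13532 stood at 0.252 and 0.293 CPM in Su113, against 37.0 and 14.5 CPM in Su140. CCHa1-R, a receptor of the neuropeptide CCHamide-1, stood at 0.419 and 0.126 CPM in Su113, against 42.1 and 13.2 CPM in Su140. In these 3 genes both Su113 libraries were far below both Su140 libraries and the log2 fold changes were -7.40 ± 0.94, -6.56 ± 0.86 and -6.58 ± 1.13. The same genes were low in Su113 at NC14, with 0.0364 and 0.155 CPM for CG32318, 0.0243 and 0 CPM for CG13532 and 0.0485 and 0.155 CPM for CCHa1-R.

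The call of mthl8 ended without Su113 replicate 2 (adjusted p = 0.0503), without Su140 replicate 1 (adjusted p = 0.0618) and without Su140 replicate 2 (adjusted p = 0.0543). The calls of CG32318 and CG13532 ended without Su113 replicate 2 (adjusted p = 0.0688 and 0.0707), with log2 fold changes of -7.02 and -6.61 there. CCHa1-R lost its call without Su113 replicate 2 (adjusted p = 0.153) and without Su140 replicate 1 (adjusted p = 0.0783), and mth without each of Su113 replicate 2, Su140 replicate 1 and Su140 replicate 2, with adjusted p between 0.0697 and 0.182.

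CG10962 (X, 8972908 to 8974255) stood at 0.210 and 0.587 CPM in Su113, against 13.6 and 9.63 CPM in Su140 (log2 fold change -4.90 ± 0.51, adjusted p = 0.00785). CG32814 (X, 1019795 to 1026700) stood at 8.18 and 15.01 CPM in Su113, against 0.410 and 0.261 CPM in Su140 (5.10 ± 0.57, adjusted p = 0.00924). In both genes the alleles did not overlap at either stage and the calls held without each library, but each shares its span and strand with another of the 62 genes, lncRNA:CR43836 and CG11638. Reads could be split between such partners, so these pairs do not count as separate genes with certainty. The other gene pairs of the 62 within 50 kb of each other were CG10738 with CG10089 and CG12321 with CG7168, both pairs higher in Su113 at both stages.

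Other genes of the set were expressed in both alleles. Aldh, the aldehyde dehydrogenase that clears acetaldehyde, stood at 56.7 and 113 CPM in Su113, against 11.02 and 6.60 CPM in Su140 (3.27 ± 0.38, adjusted p = 0.0105). DIP-lambda, a cell surface protein with immunoglobulin domains, stood at 13.7 and 15.8 CPM in Su113, against 3.21 and 3.42 CPM in Su140 (2.15 ± 0.25, adjusted p = 0.0105). CG11357 stood at 63.8 and 68.2 CPM in Su113, against 197 and 170.0 CPM in Su140 (-1.47 ± 0.14, adjusted p = 0.00734). CG11263 stood at 12.7 and 11.6 CPM in Su113, against 37.8 and 33.1 CPM in Su140, and CG14657 at 67.7 and 52.1 CPM in Su113, against 140.2 and 147 CPM in Su140. In these 5 genes the alleles did not overlap, and the calls held without each library.

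Other genes of the set had varied roles. At St7-8 edgeR's adjusted p of the genes named next lay between 0.0153 and 0.0420. None of them kept its call with each library left out in turn. Thor, a repressor of cap-dependent translation, was higher in Su113 (log2 fold change 1.35 at St7-8 and 1.25 at NC14), as were the sex differentiation factor dsx (1.97 and 2.39), the glycolytic enzyme Pgi (0.82 and 0.97), the synaptic glutamate receptor mGluR (1.20 and 2.08) and the small heat shock gene Hsp23 (2.15 and 1.87). Lower in Su113 were the secreted growth factor gene Idgf2 (-1.06 and -1.37), the melanization protease gene Sp7 (-1.87 and -2.25), the acetylcholine receptor subunit gene nAChRalpha3 (-1.70 and -1.17) and nxf2 (-1.42 and -1.03), whose product acts with Panx in piRNA-guided silencing. By chromosome arm, 21 of the 62 lay on 3L (33.9%, against 19.7% of the genes tested) and 14 on 3R (22.6%, against 24.3%), the arm that carries Jasper. This is a description, with no test. In Su(var)3-9 embryos 32 of the 62 genes were nearer to Su113 than to Su140 at both stages, 14 were nearer to Su140 and 16 changed sides between the stages.

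**Figure D2:**
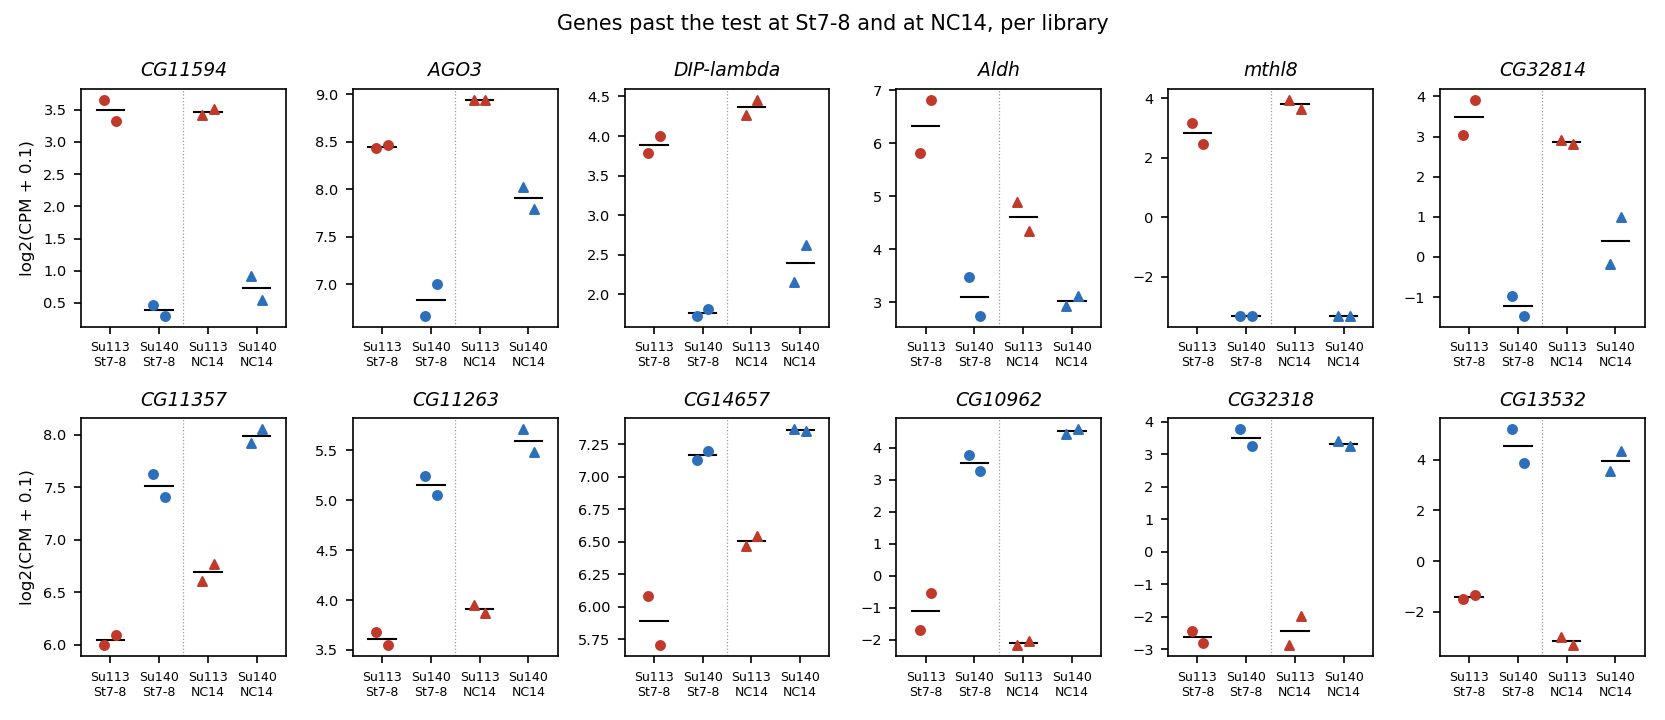
Log2(CPM + 0.1) per library for 12 genes that passed the test at both stages, Su113 in red and Su140 in blue, St7-8 as circles left of the dotted line and NC14 as triangles right of it, with a bar at each group mean. In the upper row both Su113 libraries lie above both Su140 libraries at each stage, and in the lower row they lie below.

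Hml encodes hemolectin, a clotting protein made by haemocytes and a marker of these blood cells. It stood at 0.608 and 0.252 CPM in Su113, against 88.9 and 78.3 CPM in Su140. Both Su113 libraries were low and both Su140 libraries high, and Hml in Su(var)3-9 stood at 50.9 and 10.1 CPM. Its log2 fold change was -7.54 ± 0.83 (adjusted p = 0.00924), and -3.63 ± 0.75 at NC14 (adjusted p = 0.0340), where Su113 held 0.194 and 0.226 CPM and Su140 held 2.87 and 2.37 CPM. The call ended without Su113 replicate 2 (adjusted p = 0.0503). Pxn, a matrix peroxidase that haemocytes also make, stood at 8.02 and 6.204 CPM in Su113 and 13.2 and 20.2 CPM in Su140 and did not pass (adjusted p = 0.461), and crq, a scavenger receptor of macrophages, stood at 47.7 and 112 CPM in Su113 and 42.3 and 28.5 CPM in Su140 (adjusted p = 0.148). Hml was the only one of the 7 tested haemocyte and immune genes that passed (14.3%, against 0.789% of all genes lower). The list's median log2 fold change was 0.34. Both Su113 libraries lay above both Su140 libraries in 2 of the 7 and below in 2, against 18.5% and 27.6% of all genes. In bulk RNA, fewer cells of a type and less RNA per cell cannot be told apart.

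Most genes higher in Su113 at St7-8 did not pass at NC14. Of the 175 higher genes, 142 did not pass at NC14, and 96 of these also passed the test of the change between stages. The 96 had a median log2 fold change of 2.64 at St7-8 and of -0.70 at NC14. In 127 of the 142 both Su113 St7-8 libraries lay above both Su113 NC14 libraries, against 37% of all genes tested, a comparison that shares the Su113 St7-8 libraries with the one that chose the genes. In 116 of the 175 both Su113 St7-8 libraries lay above each of the other 10 libraries, against 4.2% of all genes tested, again with the libraries that chose the genes. Left out in turn, the 4 St7-8 libraries left 10 to 96 of the 96 past the test at St7-8 and 14 to 96 past that of the change, with the fewest at St7-8 without Su113 replicate 2.

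Genes of the egg and the germ line were among them. Of 13 maternal germ plasm genes tested, 5 rose in Su113 (38.5%, against 1.42% of all genes), 0 fell, and in 11 both Su113 libraries lay above both Su140 libraries, against 18.5% of all genes. The median log2 fold change of the list was 1.37, against -0.05 over all genes, and it was -0.79 at NC14. It was 0.74 without Su113 replicate 2, and 0.58 with 0 genes past the test when the stage score was a covariate. exu (2R, 20667427 to 20671083), which places bicoid mRNA in the oocyte, stood at 111 and 217 CPM in Su113, against 12.0 and 7.34 CPM in Su140 (4.09 ± 0.36, adjusted p = 0.00420). Both Su113 libraries were also above the 12.4 and 13.1 CPM of Su113 at NC14, and above the 15.6 and 18.3 CPM of Su140 at NC14. nanos, the posterior determinant and germ cell factor, stood at 199 and 461 CPM in Su113, against 65.6 and 56.0 CPM in Su140 (2.44 ± 0.37, adjusted p = 0.0238).

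The other members that rose were vas, the RNA helicase of germ plasm, at 35.9 and 80.3 CPM in Su113 and 16.2 and 8.42 CPM in Su140 (2.24 ± 0.40, adjusted p = 0.0339), pgc, which holds pole cells transcriptionally silent, at 47.7 and 119 CPM in Su113 and 22.9 and 14.5 CPM in Su140 (adjusted p = 0.0498), and Hsp26. osk, the organiser of germ plasm, stood at 300 and 698 CPM in Su113 and 145 and 78.0 CPM in Su140 and did not pass (adjusted p = 0.132). bcd, the anterior determinant, stood at 90.2 and 145 CPM in Su113 and 94.7 and 94.1 CPM in Su140, with overlap. Replicate 2 of Su113 was the higher of the pair in every one of these genes. Without it, 1 of the 13 passed, and 2 and 1 passed without Su140 replicates 1 and 2, against 6 without Su113 replicate 1. exu kept its call without each library, and nanos, vas, pgc and Hsp26 did not. Genes on the opposite strand overlap exu and nanos (galla-1 and CG11779).

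The muscle markers moved with the same Su113 library, and their part in the result was not tested beyond the fit with the muscle marker score as a covariate, in which 1 of the 13 passed. The summed muscle level was 2895 CPM in Su113 replicate 2 and 2827 CPM in Su140 replicate 2. exu, nanos and vas were lower in Su140 replicate 2 than in Su140 replicate 1. Ovary and adult markers were near the floor. The 13 follicle cell and chorion genes, which mark ovarian tissue, and the 9 adult genes each summed to about 2 CPM or less in every library of the comparison. Which material entered a pool was not tested.

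dhd (X, 5312171 to 5313125), a thioredoxin that helps unpack sperm chromatin at fertilization, stood at 325 and 932 CPM in Su113, against 58.3 and 17.9 CPM in Su140. All libraries at NC14 were lower than both Su113 St7-8 libraries, at 12.0 and 13.5 CPM in Su113 and 44.7 and 54.3 CPM in Su140. Its log2 fold change was 4.04 ± 0.64 at St7-8 (adjusted p = 0.0253), ending without Su113 replicate 2 (3.16, adjusted p = 0.0656) and without Su140 replicate 2 (3.39, adjusted p = 0.0546). png, the catalytic subunit of the kinase that switches on translation in the activated egg, stood at 11.6 and 26.8 CPM in Su113, against 3.27 and 2.62 CPM in Su140 (2.70 ± 0.39, adjusted p = 0.0199), ending without Su140 replicate 1 (adjusted p = 0.0597) and without Su140 replicate 2 (adjusted p = 0.0697). Its partner gnu stood at 41.8 and 117 CPM in Su113 and 22.5 and 7.90 CPM in Su140 and did not pass (adjusted p = 0.107). smg, whose product clears maternal mRNA, stood at 1681 and 2873 CPM in Su113 and 1631 and 1688 CPM in Su140 and overlapped. Of the 9 tested egg activation and clearance genes, png alone passed (11.1%, against 1.42% of all genes higher). Both Su113 libraries lay above both Su140 libraries in 4 of the 9 and below in 0, against 18.5% and 27.6% of all genes.

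Of 26 piRNA pathway genes tested, 6 rose in Su113 (23.1%, against 1.42% of all genes) and 1 fell (3.85%, against 0.789%), with a median log2 fold change of 0.47. Beside AGO3 and vas, which also belongs to the germ plasm list, the risers were piwi, the nuclear Argonaute, at 83.4 and 162 CPM in Su113 and 50.9 and 34.6 CPM in Su140 (1.52 ± 0.30, adjusted p = 0.0414), del, which licenses transcription of dual-strand clusters, at 60.1 and 149 CPM in Su113 and 17.2 and 7.96 CPM in Su140 (3.05 ± 0.51, adjusted p = 0.0300), shu at 15.7 and 35.3 CPM in Su113 and 6.06 and 5.15 CPM in Su140 (adjusted p = 0.0271) and tapas at 55.2 and 105 CPM in Su113 and 26.5 and 24.7 CPM in Su140 (adjusted p = 0.0306). aub, the partner of AGO3, stood at 299 and 319 CPM in Su113 and 312 and 303 CPM in Su140 and overlapped. The 1 gene that fell, nxf2, stood at 46.3 and 29.0 CPM in Su113, against 105 and 97.0 CPM in Su140, and fell at NC14 too. AGO3 and nxf2 thus differed at both stages, whereas the changes of vas, del, shu, piwi and tapas between stages all passed the test. Without Su113 replicates 1 and 2 and Su140 replicates 1 and 2 in turn, 10, 1, 3 and 1 genes of the list rose.

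Of 12 heat shock genes tested, 4 rose (33.3%, against 1.42% of all genes) and 0 fell (median log2 fold change 2.33, against 0.15 at NC14). Hsp83, the Hsp90 chaperone, stood at 887 and 1444 CPM in Su113, against 359 and 292 CPM in Su140 (1.84 ± 0.20, adjusted p = 0.00924). Hsp26 stood at 150 and 396 CPM in Su113, against 37.8 and 17.2 CPM in Su140 (3.31 ± 0.55, adjusted p = 0.0300). Both had their higher value in Su113 replicate 2. The 4 tested Hsp70 genes and Hsp68, all induced by stress, had theirs in replicate 1. Hsp70Bb stood at 15.3 and 2.60 CPM in Su113 and 0.561 and 0.811 CPM in Su140 (3.71 ± 0.74, adjusted p = 0.0443), and Hsp68 at 66.9 and 7.59 CPM in Su113 and 5.48 and 5.41 CPM in Su140 (adjusted p = 0.0972). The Hsp70 copies are nearly identical, so counts could be split among them. Without Su140 replicate 1 or 2, 1 of the 12 rose. DnaJ-1, an Hsp40 co-chaperone outside the list, stood at 208 and 281 CPM in Su113, against 93.7 and 84.5 CPM in Su140 (1.45 ± 0.15, adjusted p = 0.00777). The calls of Hsp83 and DnaJ-1 held without each library.

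Of 108 genes for cytochromes P450 and glutathione S-transferases, which detoxify foreign compounds, 3 rose and 0 fell, a share of 2.78% near the 1.42% of all genes. GstD1 (3R, 12367817 to 12369268) stood at 117 and 216 CPM in Su113, against 10.2 and 11.5 CPM in Su140 (3.95 ± 0.35, adjusted p = 0.00420). At NC14 it stood at 3.77 and 4.48 CPM in Su113 and 7.92 and 8.95 CPM in Su140, and the change between stages passed (4.98, adjusted p = 0.0188). Cyp6a19 stood at 34.6 and 85.7 CPM in Su113, against 2.32 and 0.565 CPM in Su140 (5.38 ± 0.72, adjusted p = 0.0165), ending without Su113 replicate 2 (4.64, adjusted p = 0.0503). GstD9 was higher in Su113 at both stages, with 38.6 and 30.6 CPM in Su113 and 13.0 and 8.76 CPM in Su140 at St7-8 (1.67 ± 0.25, adjusted p = 0.0208). The Gst genes of this cluster are close paralogs, and their shares of reads are uncertain to that extent.

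Gapdh2, a glycolytic dehydrogenase, stood at 163 and 401 CPM in Su113, against 25.3 and 33.3 CPM in Su140 (3.27 ± 0.38, adjusted p = 0.0105), and kept its call without each library. Tpi, the next enzyme up the same pathway, stood at 53.9 and 130 CPM in Su113, against 7.89 and 14.4 CPM in Su140 (3.05 ± 0.47, adjusted p = 0.0243). Its call ended without Su113 replicate 2 (adjusted p = 0.0707) and without Su140 replicate 1 (adjusted p = 0.0819). CG14931 at 12.3 and 23.2 CPM in Su113 and 1.504 and 0.984 CPM in Su140, and CG6770 at 17.4 and 29.1 CPM in Su113 and 2.43 and 3.56 CPM in Su140, showed the same pattern and kept their calls. fs(1)Ya, a nuclear lamina protein of the first embryonic divisions, stood at 48.6 and 106 CPM in Su113, against 14.5 and 6.31 CPM in Su140 (2.89 ± 0.54, adjusted p = 0.0372). Its call held without Su113 replicate 1 and ended without each of the other 3 libraries, with adjusted p between 0.0636 and 0.153. In each of these 5 genes both Su113 St7-8 libraries lay above all libraries of both alleles at NC14.

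**Figure D3:**
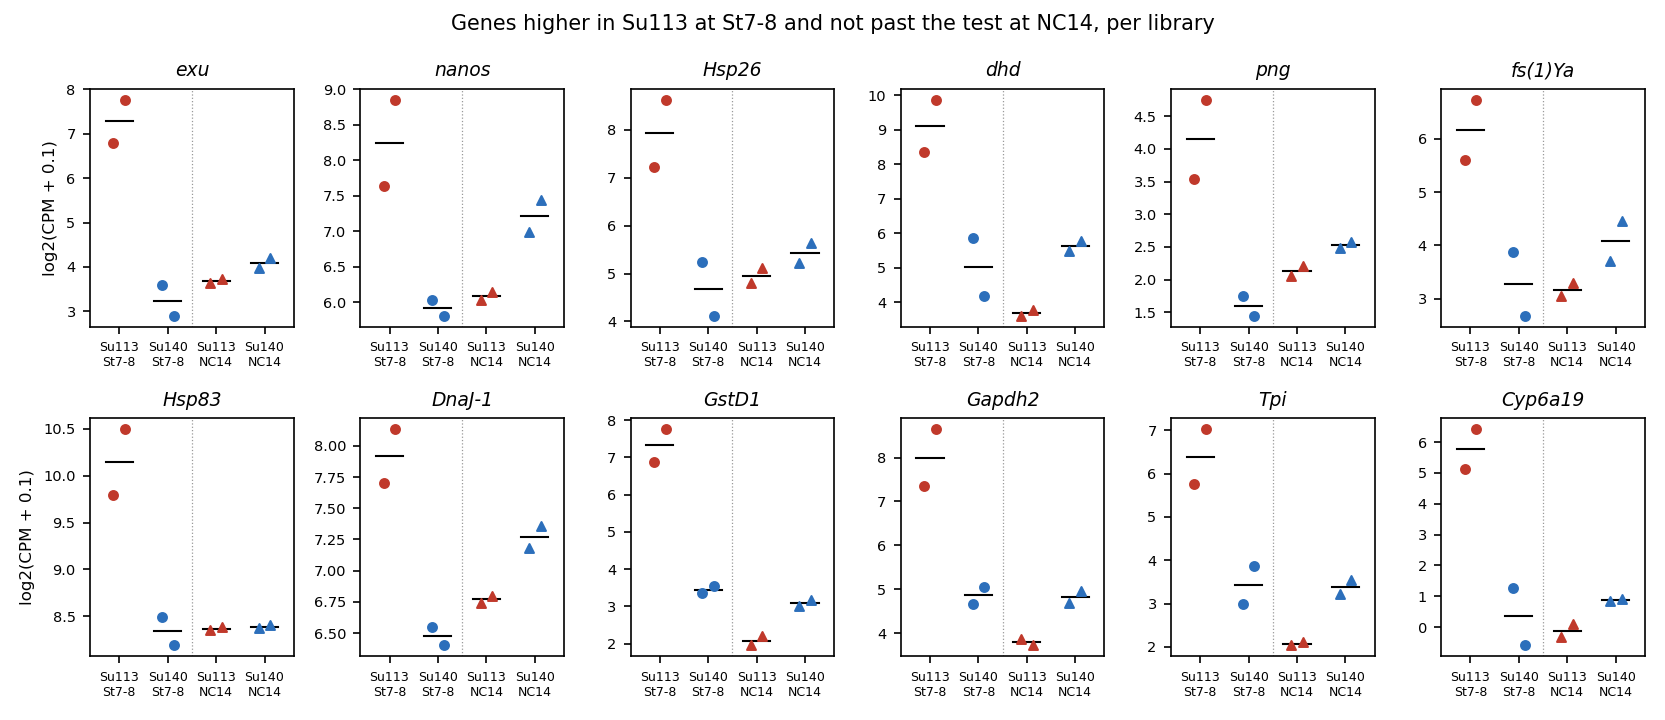
Log2(CPM + 0.1) per library for 12 genes higher in Su113 at St7-8 and not past the test at NC14, Su113 in red and Su140 in blue, St7-8 as circles left of the dotted line and NC14 as triangles right of it, with a bar at each group mean. The Su113 St7-8 libraries lie above all others in every panel, with replicate 2 the higher, and at NC14 exu stood at 12.4 and 13.1 CPM in Su113 and 15.6 and 18.3 CPM in Su140.

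The Hox genes give body segments their identity. Of the 8 tested, 3 fell in Su113 (37.5%, against 0.789% of all genes), 0 rose, and all 8 had both Su113 libraries below both Su140 libraries, against 27.6% of all genes. Their summed level was 209 and 102 CPM in Su113, against 460.3 and 453 CPM in Su140. abd-A (3R, 16807214 to 16830049), which specifies the anterior abdomen, stood at 40.1 and 22.9 CPM in Su113, against 104 and 113 CPM in Su140 (-1.78 ± 0.28, adjusted p = 0.0243). Abd-B, for the posterior abdomen, stood at 29.8 and 12.7 CPM in Su113, against 71.9 and 71.3 CPM in Su140 (-1.75 ± 0.36, adjusted p = 0.0452). Scr, for the labial and first thoracic segments, stood at 16.3 and 8.28 CPM in Su113, against 37.0 and 33.0 CPM in Su140 (-1.51 ± 0.30, adjusted p = 0.0444).

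Antp at 76.3 and 34.3 CPM in Su113 and 154 and 148 CPM in Su140 (adjusted p = 0.0622), and Ubx at 23.8 and 11.8 CPM in Su113 and 55.9 and 51.2 CPM in Su140 (adjusted p = 0.0578), did not pass. The list's median log2 fold change was -1.50 at St7-8. At NC14 it was 1.30, and 3 Hox genes, Dfd, Scr and Antp, were higher in Su113 there. The change between the stages passed the test in 6 of the 8. Scr passed in opposite directions, with 6.542 and 7.27 CPM in Su113 and 2.27 and 2.65 CPM in Su140 at NC14 (1.49 ± 0.31, adjusted p = 0.0348). The replicates of Su140 agreed closely on these genes and those of Su113 did not, with replicate 2 the lower throughout. Without Su113 replicate 1, 7 of the 8 fell, and 0 fell without each of the other 3 libraries, with list medians between -2.14 and -1.05 over the 4 fits. With the stage score as a covariate the median was -0.87 and 0 passed.

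Segment polarity genes draw the boundaries of each segment. Of the 9 tested, 2 fell (22.2%, against 0.789% of all genes), 0 rose, and all 9 lay lower in both Su113 libraries, against 27.6% of all genes (median log2 fold change -1.79, against 1.03 at NC14). inv, a homeodomain gene of the posterior compartment, stood at 3.19 and 1.66 CPM in Su113, against 12.6 and 8.60 CPM in Su140 (-2.13 ± 0.38, adjusted p = 0.0331). gsb, a paired-domain gene, stood at 14.2 and 5.07 CPM in Su113, against 37.4 and 35.6 CPM in Su140 (-1.91 ± 0.40, adjusted p = 0.0471). en, the neighbour and relative of inv, stood at 25.7 and 8.53 CPM in Su113 and 68.7 and 63.3 CPM in Su140 (adjusted p = 0.0532), and the ligand gene wg at 84.5 and 34.9 CPM in Su113 and 107 and 123 CPM in Su140 (adjusted p = 0.183). Neither passed. Without Su113 replicate 1, 8 of the 9 fell, and 0 fell without each of the other 3 libraries.

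Other patterning lists had negative medians with 0 genes past edgeR's test. Over 11 Enhancer of split genes, targets of Notch, the median log2 fold change was -1.68. Of them 10 were lower in both Su113 libraries, against 27.6% of all genes. It was -0.86 over 17 neural genes, -0.84 over 12 mesoderm genes, -0.65 over 7 gap genes, -0.57 over 17 genes of the dorsal ectoderm and amnioserosa and -0.55 over 9 pair-rule genes. An unadjusted p under 0.05 was reached by 8 of the Enhancer of split genes, 13 neural, 9 mesoderm, 3 gap, 7 dorsal ectoderm and 2 pair-rule genes. Over all genes tested it was reached by 2638 (21.5%), near the pair-rule share. DESeq2 called 7, 10, 4, 1, 2 and 2 genes of these lists, all lower in Su113. Over all 12289 genes it called 1675, of which 754 were lower. The medians moved with single Su113 libraries. Without Su113 replicate 2 they were -0.97, -0.42, -0.45, -0.18, -0.14 and 0.00183 in the same order, with 0 calls. Without Su113 replicate 1 they were -2.76, -1.52, -1.57, -1.24, -1.11 and -1.24, with 6, 11, 7, 5, 11 and 7 calls. Lists of gastrulation, head patterning, and endoderm and haemocyte genes also had negative medians, at -0.19, -0.69 and -0.79, but were less uniform. Fold changes were negative in 6 of 9, 9 of 10 and 7 of 9 of their genes. There DESeq2 called 2 lower, 2 lower and 1 higher. Patterning genes are known to change steeply with embryo age, and the libraries differed in age markers. The stage score itself holds the segment polarity and mesoderm lists. At St7-8 it was -1.97 and -2.64 in Su113, against -1.44 and -1.33 in Su140. Su(var)3-9 had 3.61 and 3.42 at that stage. At NC14 the order of the alleles was reversed, with -4.39 and -4.09 in Su113, against -5.16 and -4.96 in Su140. On this score, later embryos have higher values, and at St7-8 both Su113 libraries lay below both Su140 libraries. The cellularization genes, which fall with age, lay lower in Su113 too (median log2 fold change -0.70). Of the 7 tested, 0 passed with edgeR, 3 had an unadjusted p under 0.05 and DESeq2 called 1. The part of embryo age in these differences was not tested beyond the covariate fit.

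**Figure D4:**
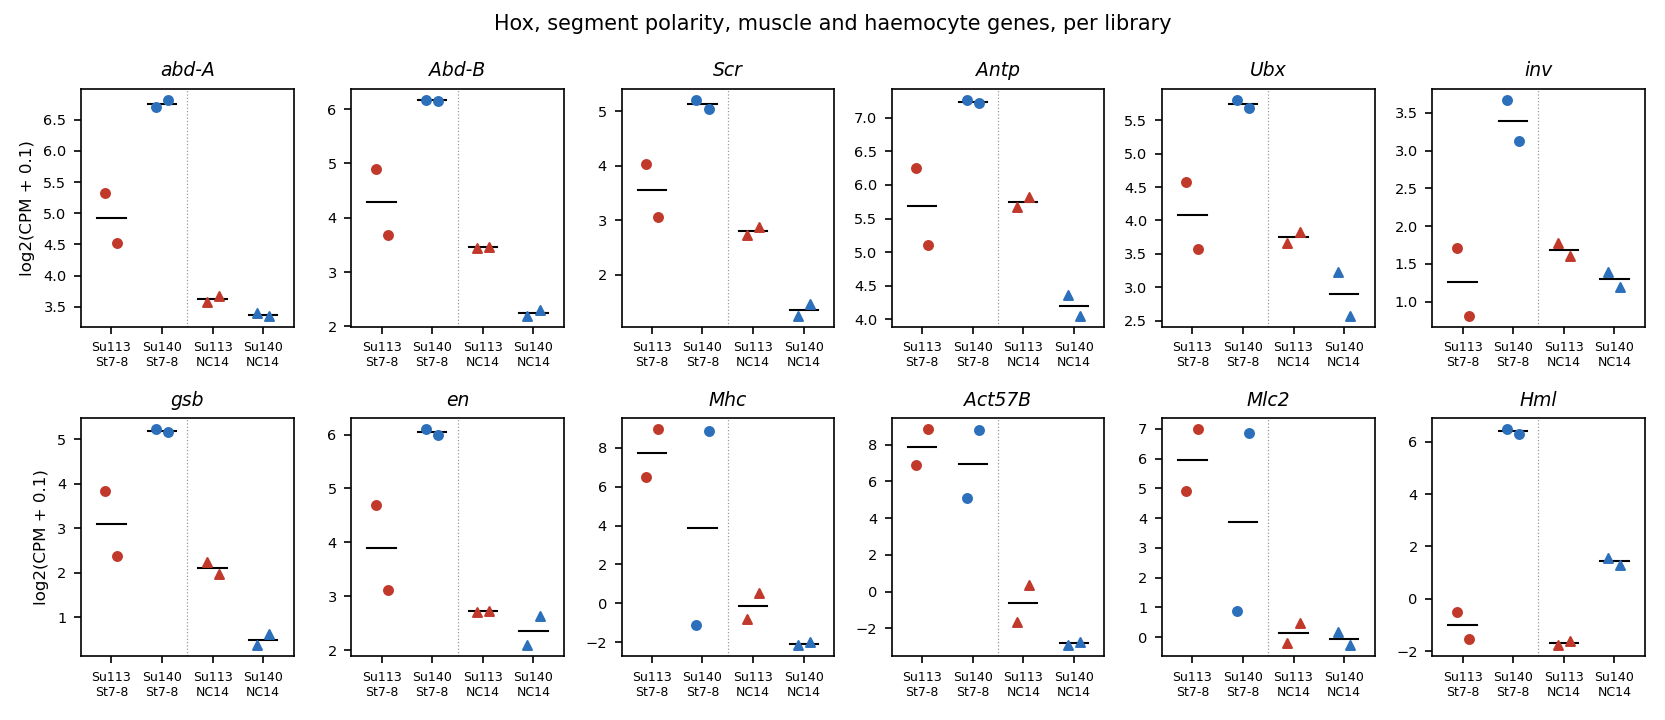
Log2(CPM + 0.1) per library for Hox genes, segment polarity genes, the muscle genes Mhc, Act57B and Mlc2 and the haemocyte gene Hml, Su113 in red and Su140 in blue, St7-8 as circles left of the dotted line and NC14 as triangles right of it, with a bar at each group mean. The Su113 St7-8 libraries lie below the Su140 St7-8 libraries in the Hox and segment polarity panels and in Hml, whereas Mhc stood at 91.3 and 495 CPM in Su113 and 0.356 and 462 CPM in Su140.

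Among the genes lower in Su113 at St7-8 outside these lists, kug, an atypical cadherin of planar polarity, had the smallest adjusted p of those that did not pass at NC14. It stood at 542 and 479 CPM in Su113, against 887 and 915 CPM in Su140 (-0.82 ± 0.10, adjusted p = 0.0105). Sxl, the switch gene of female development, stood at 587 and 563 CPM in Su113, against 919.8 and 1085 CPM in Su140 (-0.80 ± 0.16, adjusted p = 0.0414). It was the 1 gene of 13 in the sex determination and dosage compensation list that passed, 7.69% against 0.789% of all genes. The alleles did not overlap in it. spdo, a Notch regulator of asymmetric division, stood at 5.64 and 3.67 CPM in Su113 and 28.3 and 18.0 CPM in Su140 (-2.31 ± 0.41, adjusted p = 0.0331), but it shares its span and strand with PH4alphaEFB. Its call ended without Su113 replicate 2 (adjusted p = 0.174) and without Su140 replicate 1 (adjusted p = 0.121). CG31601 had at most 3 counts per Su113 library, against 7.62 and 2.72 CPM in Su140, a ratio of Su140 over Su113 of 249.8 with a counting interval of 85.2 to 1214. The calls of kug and Sxl ended without each of Su113 replicate 2, Su140 replicate 1 and Su140 replicate 2, with adjusted p between 0.0523 and 0.0692 for kug and between 0.115 and 0.240 for Sxl. CG31601 kept its call without each library.

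Jasper itself (FBgn0039743, 3R, 30052514 to 30054697) stood at 134 and 109 CPM in Su113, against 156 and 143 CPM in Su140. Both Su113 libraries were lower, and the difference did not pass (-0.29 ± 0.15, adjusted p = 0.299). JIL-1 stood at 244 and 293 CPM in Su113 and 323 and 268 CPM in Su140, with overlap (-0.14 ± 0.18, adjusted p = 0.737). w (X, 2790599 to 2796466) stood at 3.98 and 1.78 CPM in Su113 and 3.97 and 7.57 CPM in Su140, also with overlap (log2 fold change -0.996 ± 0.46, adjusted p = 0.254), and kirre spans it on the opposite strand. Su(var)3-9, the heterochromatin histone methyltransferase, stood at 107 and 69.6 CPM in Su113, against 121 and 117 CPM in Su140 (-0.43 ± 0.21, adjusted p = 0.273). spn-A overlaps Jasper on the opposite strand, and eIF2gamma shares the span and strand of Su(var)3-9. Without Su113 replicate 1, Su(var)3-9 passed (-0.80, adjusted p = 0.0295). Gene counts show no point lesion, so they do not check the allele labels.

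Of 13 genes of JASPer partners and interband chromatin, 18 of heterochromatin proteins and 14 of the Polycomb group, 0 passed in either direction with edgeR, with median log2 fold changes of -0.14, -0.10 and -0.17. An unadjusted p under 0.05 was reached by 1, 1 and 7 of them, and DESeq2 called 1, 0 and 3. Over all 12289 genes, 2638 (21.5%) reached that p and DESeq2 called 1675. Of 92 ribosomal protein genes, 0 passed with edgeR (median -0.02), 9 had an unadjusted p under 0.05 and DESeq2 called 6. Of the 67 genes within 500 kb of w, 1 rose, fs(1)Ya (1.49%), and 0 fell. Of 145 within 500 kb of Jasper, Tpi rose and spdo fell (0.69% each). Over all genes 1.42% rose and 0.789% fell, so neither window stood out from those shares. On chromosome 4, rich in heterochromatin, 3 of 103 rose and 2 fell. They were mGluR, unc-13 at 369 and 446 CPM in Su113 and 254 and 277 CPM in Su140, and Sox102F, against PlexA at 947 and 891 CPM in Su113 and 1338 and 1373 CPM in Su140, and Dyrk3 at 186 and 169 CPM in Su113 and 259 and 272 CPM in Su140. These shares of 2.91% and 1.94% stand beside 1.42% and 0.789% over all genes, and rest on 3 and 2 genes.

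**Figure D5:**
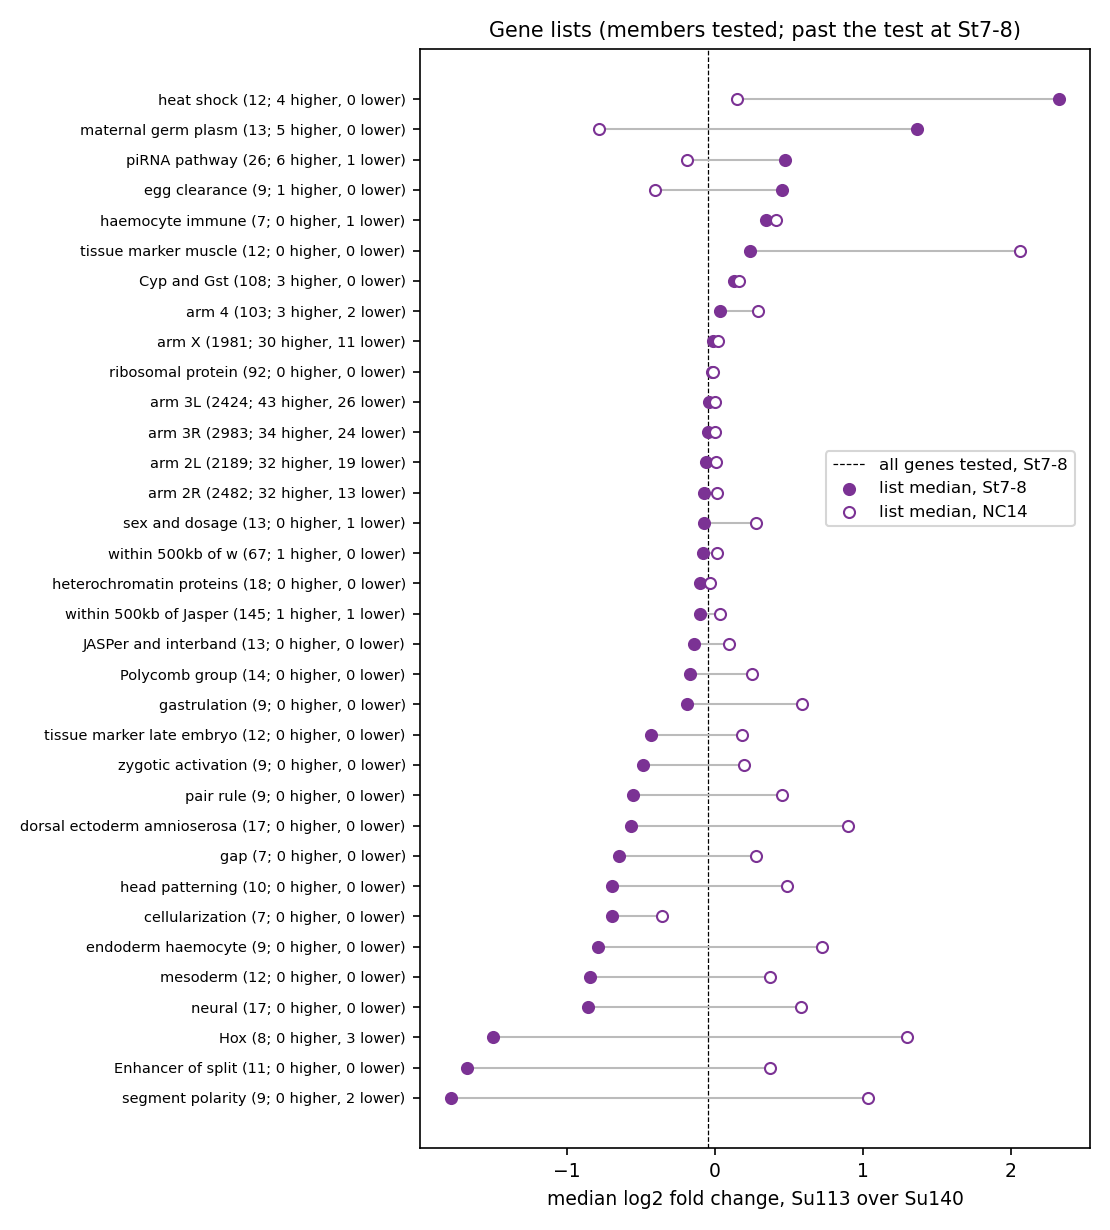
Median log2 fold change of Su113 over Su140 per gene list at St7-8 (filled) and NC14 (open). Each label gives the numbers of genes tested, higher and lower at St7-8. The chromosome Y, adult, follicle and chorion, and histone and linker lists are not drawn. The heat shock (2.33) and maternal germ plasm (1.37) medians lie highest at St7-8 and the Hox (-1.50), Enhancer of split (-1.68) and segment polarity (-1.79) medians lowest, against -0.05 over all genes (dashed line).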

How the data were processed

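The authors deposited 1 table of whole-number read counts per gene (17753 genes, 16 libraries). The submitters' processing notes name dm6 and DESeq2. The aligner, the counter, its strand setting and the gene annotation are not given in the sources used here. Gene positions and names came from the Ensembl 115 annotation, in which 17626 identifiers matched and 127 did not (0.99 to 1.14% of counts per library). No sequences of these genes were used here.

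Counts of 12 libraries (Su113, Su140 and Su(var)3-9 at NC14 and St7-8) were fitted together with edgeR 4.0.16 (R 4.3.3), with 6 group means, TMM scaling, filterByExpr (12289 genes kept, 5464 removed) and the two-sided quasi-likelihood test. P-values were adjusted over all genes tested by the Benjamini-Hochberg method with a threshold of 0.05. Contrasts were Su113 minus Su140 at St7-8, the same at NC14, and the change between them. Contrasts use the shared spread, and each group had 2 libraries. CPM values are counts scaled to TMM-adjusted library totals, and fold changes use a prior count. Total counts of the 8 libraries of both alleles ranged from 43466130 to 89559757. The fits were run on simulated data in which each gene had the same spread in all groups. Such data cannot check the test where replicate spread differs between stages, as it did here. Figures were drawn with matplotlib 3.10.9.

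Named genes were Jasper, Su(var)3-9, JIL-1 and w, the 12 highest and 12 lowest fold changes among genes past the test with a mean of at least 2 CPM and no overlap, the 6 smallest adjusted p in each direction and of the change between stages, and up to 3 genes per list; other genes named as members of a list or class were chosen after their values were seen. The members and the gene lists were chosen with earlier results of these data known. Alternatives were other library sets, scalings, filters and tools (DESeq2 1.42.0, limma 3.58.1), a replicate block, marker scores as covariates, and each library left out.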

Additional observations from a re-analysis of the deposited data

Results flagged for a closer look

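The allele difference at St7-8 differed from that at NC14 by the test of the difference itself (edgeR's quasi-likelihood test, adjusted p between 0.0188 and 0.0454) in 31 of the genes named. These genes were named mainly for their St7-8 difference, which is part of this test, and 6 for its smallest p-values. Their number is therefore no independent support. Over all genes tested, 752 passed (6.12%). Values are the log2 fold change of Su113 over Su140 at St7-8 less that at NC14. Among the egg and germ line genes with a positive change it was 4.50 for exu, 3.58 for nanos, 6 for dhd, 3.11 for png, 3.84 for fs(1)Ya and 2.58 for shu. Among the chaperone genes with a positive change it was 1.96 for DnaJ-1, 1.86 for Hsp83 and 3.79 for Hsp26. Among the metabolic and detoxification genes with a positive change it was 4.98 for GstD1, 6.43 for Cyp6a19, 4.31 for Gapdh2 and 4.38 for Tpi. Among genes identified by number with a positive change it was 4.43 for CG14931, 4.04 for CG6770, 5.46 for CG4842, 6.04 for CG31075 and 4.39 for CG4476. Among the Hox genes it was -2.03 for abd-A, -2.99 for Scr and -2.98 for Abd-B. Among the segment polarity genes it was -2.53 for inv and -3.60 for gsb. Other genes with a negative change had -0.77 for kug, -5.21 for CG31601, -0.59 for Dyrk3, -2.64 for spdo, -1.90 for miple2, -1.25 for Sxl, -3.58 for CG32855 and -2.69 for hbt.

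In the fits to the 8 Su113 and Su140 libraries and with a replicate block, 0 genes passed this test at an adjusted p under 0.05, with 3227 and 3033 genes at an unadjusted p under 0.05. Embryo age and muscle markers, whose levels by library stand with the stage check, moved with several of these genes, and their part was not tested beyond the covariate fits.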

How the results depend on the processing

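The count of 272 genes at St7-8 was 297 in a fit to all 16 libraries, 282 with RLE factors, 259 with upper-quartile factors and 276 with no filter. The count moved to 0 in the fits to the 4 and the 6 St7-8 libraries and with the stage score, to 16 in the 8 libraries of both alleles (chosen after seeing the data), to 45 with limma voom and quality weights, to 65 with the muscle score (chosen after seeing the data), to 516 with a filter at 2 CPM, and to 1675 with DESeq2. It was 33 to 1758 with 1 library left out and 176 without replicate 2 of both alleles. The 571 genes at NC14 became 20 with the stage score, 237 in the 8 libraries, 977 with the 2 CPM filter, 2400 with DESeq2, 3990 with voom and 0 to 10 with 1 library left out (0 without Su113 replicate 1, where 1739 had an unadjusted p under 0.05). The 752 changes between stages became 0 with the stage score (399 with an unadjusted p under 0.05) and in the 8 libraries (3227), 1293 with the 2 CPM filter, 2581 with DESeq2 and 38 to 2440 with 1 library left out. The causes were not tested.

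Replicate numbers did not pair the samples by the labels. The correlation of same-numbered deviations was 0.332 at St7-8 and 0.0261 at NC14. The replicate block gave 69 calls at St7-8, 228 at NC14 and 0 changes, of which 3033 had an unadjusted p under 0.05. The log2 fold change of w turned to 0.0809 without replicate 2 of both alleles (adjusted p = 0.964). That of JIL-1 lay between -0.297 and 0.0521 with 1 library left out, above 0 without Su140 replicate 1 (adjusted p = 0.938).

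Of 55 named genes past the test, 17 kept their calls with each library left out, and all 55 lost them in the fits to the 4 and 6 libraries and with the stage score. Levels at or under 3 counts per library cannot be told from 0.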
